A study of Mus musculus with 36 samples.

Results

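TNF superfamily ligands and receptors were followed by name in RNA of mouse intestinal organoids, 10 genes of the 52636 genes listed in the counts. The ligands were Tnfsf13b (BAFF), Tnfsf10 (TRAIL), Tnfsf15 (TL1A) and Tnf, and the receptors were Tnfrsf1a, Tnfrsf1b, Tnfrsf10b, Tnfrsf12a, Tnfrsf21 and Fas. Tnfsf13b was on the list because its level had been seen to be higher with anti-Ptk7, so its values in the libraries behind that choice are a description without a test. The other 9 members were chosen as members of the family with earlier results of these data known. All 10 had a mean over the libraries above the detection limit of 0.5 CPM (counts scaled to a common library size of 1000000), and all 10 were among the 15497 genes tested.

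Organoids were grown from jejunal crypts of 6 C57BL/6 mice, and RNA was sequenced from 36 cultures in 6 groups of 6 libraries. The groups received complete media (the commercial medium IntestiCult) with IgG, QCM with IgG, SCM with IgG, SCM with anti-Ptk7, complete media containing Wnt5a with IgG, and complete media containing Wnt5a with anti-Ptk7. QCM and SCM are media conditioned by mouse embryonic fibroblasts, quiescent after serum withdrawal or senescent after X-ray irradiation or doxorubicin, and the labels do not say which treatment made the SCM of a library. Ptk7 is a pseudokinase receptor of the noncanonical Wnt pathway, and Wnt5a is a ligand of that pathway. The antibody was given in SCM and in Wnt5a only, so its effect in complete media or QCM was not measured. The mice carry the IDs 1 to 6, and the replicates the numbers 1 to 6 in every group. The study's methods take a replicate as a mouse unless otherwise stated, but the labels do not tie a replicate number to a mouse ID across groups, so p values measure the spread between these libraries.

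TNF superfamily ligands are trimeric proteins, made on the membrane and often released by proteases, that cluster their receptors on the target cell. Receptors with a death domain, such as TNFR1, DR5 and Fas, can assemble caspase-8 complexes, and receptors without one recruit TRAF proteins and switch on NF-kB and kinase pathways. In the intestine TNF is best known for driving inflammation and epithelial cell death, Fn14 for epithelial repair, and BAFF for keeping B cells alive in the underlying tissue.

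Library totals lay between 9581589 and 21029769 counts. The labelled cell type was checked against marker genes. The summed level of 7 epithelial markers lay between 8366 and 31931 CPM. Of 12 immune cell markers, 9 were under the detection limit, with Itgax, Adgre1 and Tyrobp among those at 0 in every library, and their sum of 10.6 to 20.7 CPM came mostly from Csf1r. Of 8 fibroblast markers, Pdgfrb alone was detected, at no more than 6.34 CPM, and none of 5 endothelial markers was. In bulk RNA a smaller share of a cell type and less RNA per cell cannot be told apart.

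Per kilobase of coding sequence, Tnfrsf12a was the most abundant of the 10, at a mean of 425 CPM per kb over the 36 libraries. Tnfrsf1a followed at 58.1, Tnfrsf1b at 31.98 and Tnfrsf21 at 28.8 CPM per kb. The ligands were lower, with Tnfsf10 at 13.5, Tnf at 9.74, Tnfsf13b at 5.22 and Tnfsf15 at 2.29 CPM per kb. The death receptors Tnfrsf10b, at 6.80, and Fas, at 3.77 CPM per kb, lay among the ligands. RNA of these organoids held the receptors for TNF and TWEAK at higher levels per length than any of the 4 ligands. All other levels here are CPM after TMM scaling, which are not corrected for gene length.

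**Figure D1:**
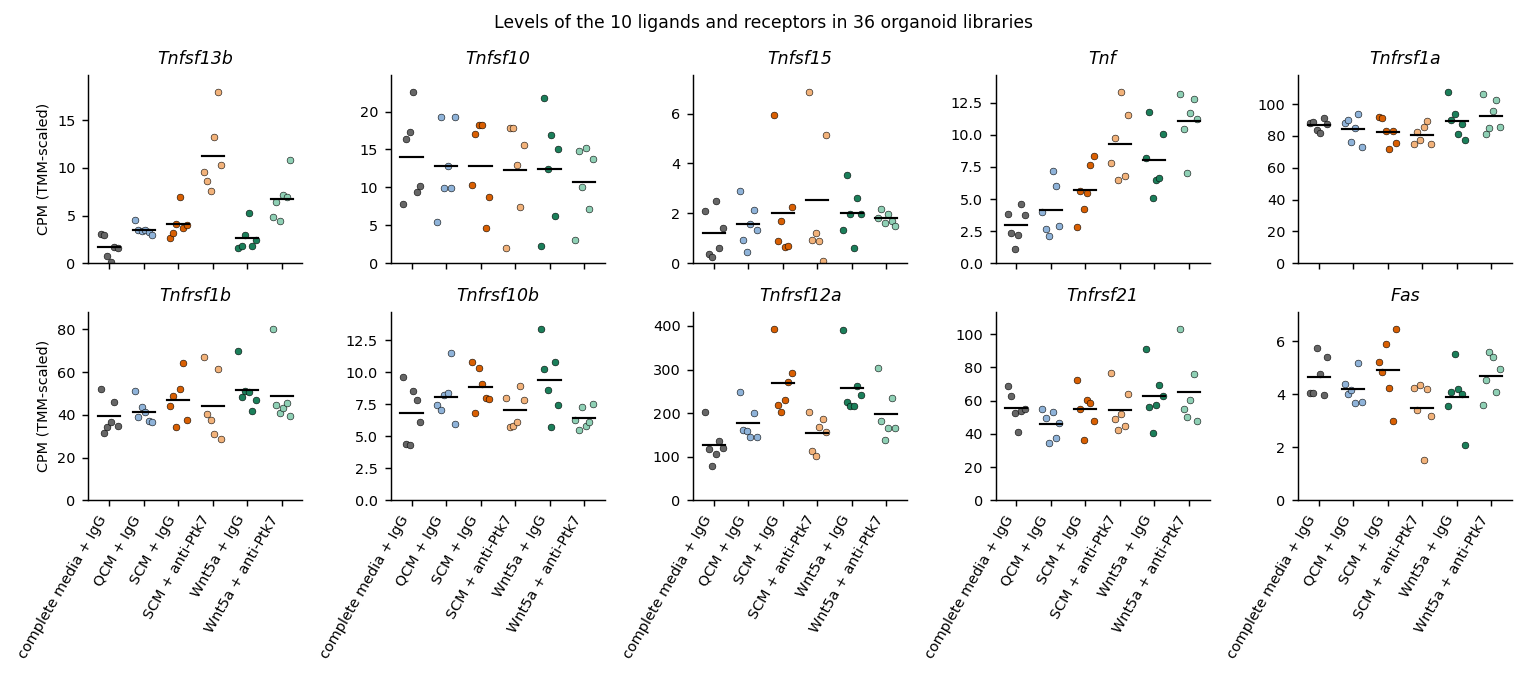
Each point is 1 library, in replicate order 1 to 6 from left to right, and each black line is the mean of 6 libraries; the vertical axes give CPM after TMM scaling and start at 0. Tnfsf13b stands highest in the anti-Ptk7 groups (means 11.2 and 6.79 CPM), Tnf rises from 2.98 CPM in complete media to 8.04 in Wnt5a + IgG, and Tnfrsf12a is highest in SCM + IgG and Wnt5a + IgG (268 and 259 CPM).

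The sequence before the RefSeq transcription start is shown for the 3 members whose levels moved most between groups, 2 ligands and a receptor, on build GRCm38.p6 and read 5′ to 3′ on the strand of the gene. The Tnf stretch is chr17:35202008-35202257 on the minus strand, the Tnfrsf12a stretch chr17:23677469-23677699 on the minus strand, and the Tnfsf13b stretch chr8:10006217-10006466 on the plus strand, before the first of its starts. The Tnfrsf12a stretch leaves out the 19 bases nearest the RefSeq start, which lie inside the annotated gene. Capitals mark the TATA motif TATAAA and the GC box GGGCGG on either strand.
Tnf: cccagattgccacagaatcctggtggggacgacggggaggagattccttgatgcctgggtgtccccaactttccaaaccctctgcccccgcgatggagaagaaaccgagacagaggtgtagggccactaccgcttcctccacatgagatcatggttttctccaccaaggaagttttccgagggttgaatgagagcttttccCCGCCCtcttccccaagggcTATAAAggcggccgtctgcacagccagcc
Tnfrsf12a: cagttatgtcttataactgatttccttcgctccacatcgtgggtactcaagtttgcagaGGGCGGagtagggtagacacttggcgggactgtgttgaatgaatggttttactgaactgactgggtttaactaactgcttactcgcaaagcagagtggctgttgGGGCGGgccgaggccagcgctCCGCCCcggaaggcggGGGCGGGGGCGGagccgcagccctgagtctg
Tnfsf13b: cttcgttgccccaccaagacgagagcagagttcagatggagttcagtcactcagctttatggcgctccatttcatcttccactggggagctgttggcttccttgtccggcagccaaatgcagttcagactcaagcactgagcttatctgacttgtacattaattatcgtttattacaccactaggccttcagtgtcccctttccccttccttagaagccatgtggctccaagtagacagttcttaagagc

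The 3 stretches differ in these motifs. The Tnf stretch holds 1 TATAAA, starting 29 bases before the start, and 1 GC box, the Tnfrsf12a stretch holds 5 GC boxes and no TATAAA, and the Tnfsf13b stretch holds neither. Over all 32851 RefSeq windows of 250 bases before a start, 12.4% hold TATAAA and 32.7% hold a GC box. The same search on both strands looked for the kappaB consensus, the TEAD motif GGAATG and the AP-1 motif TGANTCA. None of the 10 windows of the 9 members in the table held the kappaB consensus (3.90% of all windows), 2 held GGAATG (12.6% of all), those of Tnfsf15 and Tnfrsf1b, and 2 held TGANTCA (6.75% of all), those of Fas and of the second start of Tnfsf13b. The windows of the 2 Tnfsf13b starts overlap. Tnfrsf10b was not among the entries.

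Tnfsf13b encodes BAFF, a survival factor for B cells. Its level ranged from 0.146 to 3.03 CPM in complete media + IgG (median 1.63), from 2.94 to 4.55 in QCM + IgG (median 3.44) and from 2.60 to 6.96 in SCM + IgG (median 3.85). It ranged from 1.64 to 5.25 CPM in Wnt5a + IgG, with a median of 2.12. The highest complete media library reached into the ranges of all 3 other IgG groups, and the lowest complete media library rested on 2 counts. With anti-Ptk7 the range was 7.55 to 18.01 CPM in SCM (median 9.94) and 4.48 to 10.9 CPM in Wnt5a (median 6.66). In SCM every antibody library lay above every IgG library, and in Wnt5a the ranges overlapped.

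The group means of Tnfsf13b ran from complete media (1.68 CPM) through Wnt5a + IgG (2.65), QCM + IgG (3.51), SCM + IgG (4.08) and Wnt5a + anti-Ptk7 (6.79) to SCM + anti-Ptk7 (11.2). Its fitted log2 fold change with anti-Ptk7, which is what chose it, was 1.46 (SE 0.341) in SCM and 1.35 (SE 0.348) in Wnt5a, and the effects differed by -0.10 (SE 0.487). Against complete media its log2 fold change was 1.30 (SE 0.368) in SCM + IgG and 0.69 (SE 0.372) in Wnt5a + IgG, where the IgG libraries had also served in the choice. The comparison of QCM with complete media used none of those libraries, and there its log2 fold change of 1.09 (SE 0.368) did not pass the test (edgeR quasi-likelihood, adjusted p = 0.185). The 3 BAFF receptor genes Tnfrsf13b, Tnfrsf13c and Tnfrsf17 were under the detection limit, at means of 0.0431, 0.0106 and 0 CPM over 36 libraries.

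The counts of Tnfsf13b could include reads of the gene Gm44789, which overlaps it on the other strand, since the use of strand in counting is not given in the sources used here. The summed immune cell markers had medians of 16.5 CPM in SCM + IgG against 15.6 with anti-Ptk7, and 18.3 CPM in Wnt5a + IgG against 18.7. Without Csf1r these medians were 3.15 CPM against 2.14 in SCM, and 1.99 CPM against 3.64 with the antibody in Wnt5a, where the ranges of 1.75 to 3.08 and 1.94 to 4.24 CPM overlapped. Ptprc, the pan-leukocyte gene CD45, was at 0 in 32 of 36 libraries, and the B cell gene Ms4a1 was at 0 in 25 libraries. The summed fibroblast markers had medians of 1.17 CPM in SCM + IgG against 4.54 with anti-Ptk7, and 2.09 CPM in Wnt5a + IgG against 3.07, most of it from Pdgfrb, whose log2 fold change with anti-Ptk7 in SCM was 1.88 (SE 0.614, adjusted p = 0.0927). Without Pdgfrb no library exceeded 1.32 CPM, and Col3a1, Dcn and Thy1 were at 0 in all libraries. The part of these cells in the antibody comparisons was not tested.

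The 5 genes with the pattern most like Tnfsf13b were Dio1, a deiodinase of thyroid hormone, 2010003K11Rik, Cst6, a cysteine protease inhibitor, Tmem139, and Gkn3, a gastrokine. Pearson's r of log2 CPM over the 36 libraries ranged from 0.77 to 0.84 among 12456 genes compared. The 36 points share 6 groups, so the likeness describes these libraries and has no p. Dio1 went from a mean of 7.75 CPM in complete media to 20.3 in SCM + IgG and 46.2 in SCM + anti-Ptk7, and from 16.3 CPM in Wnt5a + IgG to 47.2 in Wnt5a + anti-Ptk7.

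Tnf encodes the founding cytokine of the family. Its level ranged from 1.08 to 4.60 CPM in complete media + IgG (median 3.06), from 2.09 to 7.22 in QCM + IgG (median 3.42) and from 2.80 to 8.33 in SCM + IgG (median 5.56). In Wnt5a + IgG it ranged from 5.09 to 11.8 CPM, with a median of 7.41. Every Wnt5a + IgG library lay above every complete media library, whereas the SCM and QCM ranges overlapped that of complete media. Tnf rose in Wnt5a + IgG against complete media, by 1.44 on the log2 scale (SE 0.306, adjusted p = 0.000789), and this call held in all 48 alternative fits.

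In SCM + IgG Tnf passed the threshold narrowly against complete media, at a log2 fold change of 0.92 (SE 0.308, adjusted p = 0.0456). The call was lost in 18 of 48 alternative fits, among them both voom fits, and when any of 12 single libraries was left out, at adjusted p of up to 0.133. Those libraries were replicates 2, 3, 4 and 6 of complete media + IgG, 1 of QCM + IgG, 2, 4, 5 and 6 of SCM + IgG, 4 and 6 of Wnt5a + IgG and 2 of Wnt5a + anti-Ptk7. Against QCM + IgG the log2 fold change in SCM + IgG was 0.44 (SE 0.299, adjusted p = 0.478), so SCM and QCM were not distinguished.

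With anti-Ptk7, Tnf ranged from 6.48 to 13.4 CPM in SCM (median 8.77) and from 7.02 to 13.2 CPM in Wnt5a (median 11.5). Both ranges overlapped those of the matching IgG groups. The log2 fold changes of 0.72 (SE 0.294, adjusted p = 0.191) in SCM and 0.46 (SE 0.288, adjusted p = 0.493) in Wnt5a did not pass the test. As an order of means, Tnf ran from complete media (2.98 CPM) through QCM + IgG, SCM + IgG, Wnt5a + IgG and SCM + anti-Ptk7 to Wnt5a + anti-Ptk7 (11.1 CPM), and each step between neighbours was smaller than the larger SD of the pair.

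The remaining ligands passed no test in any comparison. Tnfsf10 encodes TRAIL, a ligand of death receptors, and ranged from 2.01 to 22.6 CPM over all libraries, with group medians between 11.3 and 14.3 CPM. Its fitted log2 fold changes ran only from -0.23 to 0.02, each with an SE of 0.433 to 0.435. Tnfsf15 encodes TL1A, a ligand of the receptor DR3 and a costimulator of T cells, and ranged from 0.0838 to 6.88 CPM, with an SE of at least 0.610 on every log2 fold change. Counts of Tnfsf15 ran from 1 to 96 per library, and its receptor gene Tnfrsf25 was at 0 in 30 of 36 libraries.

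Tnfrsf12a encodes Fn14, a small receptor without a death domain that binds the ligand TWEAK. Its level ranged from 78.5 to 202 CPM in complete media + IgG (median 120), from 145 to 248 in QCM + IgG (median 160.0) and from 203 to 393 in SCM + IgG (median 251). In Wnt5a + IgG it ranged from 216 to 391 CPM, with a median of 234. All SCM + IgG and Wnt5a + IgG libraries lay above all complete media libraries, although the lowest SCM library, at 202.71 CPM, was close to the highest complete media library, at 202.44 CPM. Tnfrsf12a rose by 1.08 on the log2 scale in SCM (SE 0.210, adjusted p = 0.000607) and by 1.03 in Wnt5a (SE 0.210, adjusted p = 0.000498), from a mean of 127 CPM to 268 and 259 CPM.

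Both calls held in 47 of 48 alternative fits each, and both were lost under glmTreat, which tests whether the change exceeds 1.5-fold rather than 0. In the same comparisons 3 of 7 epithelial markers were called higher in SCM, beside 6.08% of all genes tested, and 4 of 7 in Wnt5a, beside 10.2%. The keratin genes Krt8, Krt18 and Krt19 were among them, at 0.95 to 1.25 on the log2 scale, while 1 of the 7 lay below 0 in each comparison. The part of a changed epithelial content in the Tnfrsf12a result was not tested. QCM gave a log2 fold change of 0.48 (SE 0.208, adjusted p = 0.343) against complete media, and SCM one of 0.60 (SE 0.208, adjusted p = 0.118) against QCM. Neither passed the test in this fit, which has no term for the replicate number. With such a term SCM against QCM was called (0.59, adjusted p = 3.42e-05), and QCM against complete media stayed under the fold cutoff (0.51, adjusted p = 0.000866). Whether a number marks the same mouse in every group is not established.

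With anti-Ptk7, Tnfrsf12a ranged from 101 to 204 CPM in SCM (median 163) and from 138 to 304 CPM in Wnt5a (median 173). The SCM ranges with antibody and with IgG met at their edges, where the highest antibody library (203.55 CPM) exceeded the lowest IgG library (202.71 CPM), and the Wnt5a ranges overlapped more. Tnfrsf12a fell by 0.79 on the log2 scale with anti-Ptk7 in SCM (SE 0.208, adjusted p = 0.0317), from a mean of 268 ± 69.9 to 155 ± 40.7 CPM (SD, n = 6). In Wnt5a its log2 fold change was -0.38 (SE 0.207, adjusted p = 0.393), with means of 259 ± 66.9 and 198 ± 61.0 CPM.

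The difference between these antibody effects was 0.41 (SE 0.293, adjusted p = 0.999), so the effect was not shown to differ between SCM and Wnt5a. The call in SCM was lost when replicate 1 or 6 of SCM + IgG or replicate 2, 3 or 6 of SCM + anti-Ptk7 was left out, at adjusted p between 0.0539 and 0.125, and when the fit held only the groups compared (adjusted p = 0.0649), and under glmTreat (adjusted p = 1). In each group the library numbered 1 had the highest Tnfrsf12a level. Without those 6 libraries, a fit chosen after seeing the data, the log2 fold change with anti-Ptk7 in SCM was -0.76 (SE 0.157, adjusted p = 0.00666). Its ligand gene Tnfsf12 (TWEAK) was under the detection limit, at 0 in 28 of 36 libraries, but it overlaps the read-through gene Tnfsfm13, so its counts are uncertain.

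**Figure D2:**
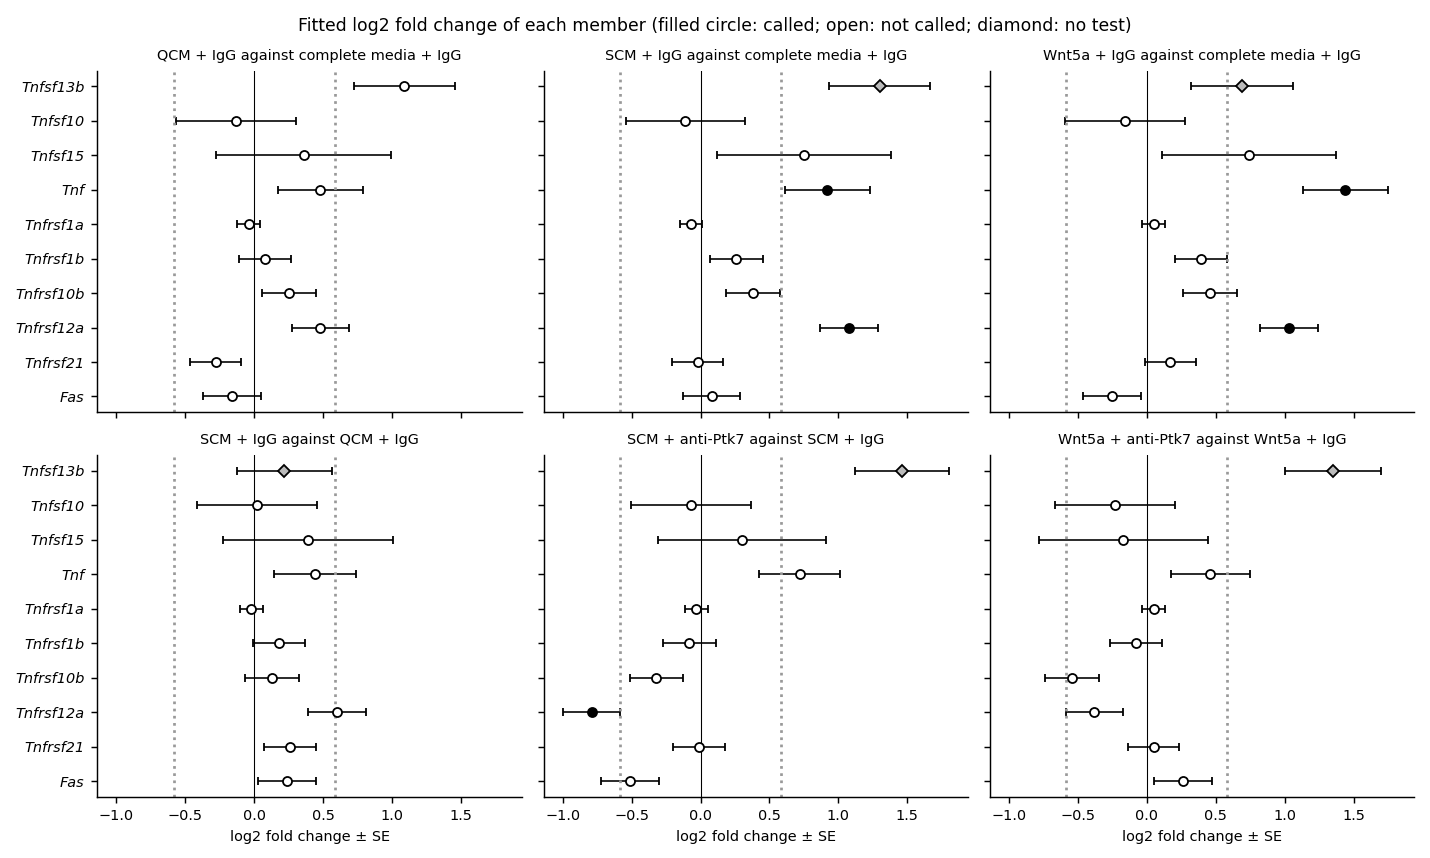
Fitted log2 fold change of each member in the 6 comparisons, with bars of ± 1 SE; filled circles were called, open circles were not, diamonds are Tnfsf13b values that rest on libraries used to choose it, and dotted lines mark a 1.5-fold change. Filled circles appear for Tnf and Tnfrsf12a above 0 in SCM and Wnt5a against complete media, and for Tnfrsf12a below 0 with anti-Ptk7 in SCM.

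Neither receptor for TNF was called in any comparison. Tnfrsf1a encodes TNFR1, the death domain receptor for TNF, and ranged from 71.5 to 108 CPM over the 36 libraries. Its log2 fold changes lay between -0.07 and 0.05 in the 6 comparisons, with an SE near 0.0822, and it had the smallest errors of the 10. Tnfrsf1b encodes TNFR2, which lacks a death domain, and its log2 fold changes lay between -0.08 and 0.39. The upper value, in Wnt5a + IgG against complete media (51.6 ± 9.65 against 39.3 ± 8.05 CPM, SD, n = 6), did not pass the test (SE 0.189, adjusted p = 0.141).

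The death receptors gave no call. Tnfrsf10b encodes DR5, the TRAIL receptor of the mouse, and its medians were 7.001 CPM in complete media, 8.54 in SCM + IgG and 9.45 in Wnt5a + IgG, with overlapping ranges. Its log2 fold change in Wnt5a was 0.46 (SE 0.196, adjusted p = 0.0934), and a call appeared when replicate 1 of complete media + IgG was left out (0.59, adjusted p = 0.0356). With anti-Ptk7 it went from a mean of 9.38 ± 2.70 to 6.42 ± 0.806 CPM in Wnt5a, a log2 fold change of -0.54 (SE 0.196, adjusted p = 0.140). Tnfrsf21 encodes DR6, a death domain receptor studied mostly in neurons and T cells, and its log2 fold changes lay between -0.28 and 0.26.

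Fas, the receptor of Fas ligand, was low in every group, between 1.53 and 6.47 CPM. The antibody gave a log2 fold change of -0.51 in SCM (SE 0.211, adjusted p = 0.200) and of 0.26 in Wnt5a (SE 0.210, adjusted p = 0.619). The difference of 0.77 between these effects (SE 0.298) was the only one of the 9 members with an unadjusted p under 0.05 in that test, and its adjusted p was 0.999. Fasl had no count in any library. Fas overlaps the short RNA gene Gm27818 on the same strand, so their reads may not be separate.

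Calls needed an adjusted p below 0.05 together with a change of more than 1.5-fold. The counts here leave out Tnfsf13b, which was chosen by its level with and without anti-Ptk7 in SCM and Wnt5a. In SCM + IgG against complete media 2 of the 9 others were called, Tnf and Tnfrsf12a, both higher, beside 6.08% of all genes tested, with 2 members and 24.68% of all genes at an unadjusted p under 0.05. That count fell to 1 without any of the 12 libraries on which the Tnf call rested. In Wnt5a + IgG against complete media the same 2 of 9 were called, both higher, beside 10.2% of all genes, with 4 members and 33.12% of all genes at that unadjusted p. Over the 9 the log2 fold change had a median of 0.26 in SCM and 0.39 in Wnt5a, against 0.0068 and 0.0051 over all genes.

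The other comparisons called fewer members. In QCM against complete media 0 of 9 were called, beside 0.374% of all genes, with 1 member and 11.99% of all genes at an unadjusted p under 0.05. In SCM against QCM 0 of 9 were called, beside 0.903% of all genes, with 1 member and 16.99% of all genes at an unadjusted p under 0.05. With anti-Ptk7 1 of 9 was called in SCM, beside 1.23% of all genes, with 3 members and 17.13% of all genes at an unadjusted p under 0.05. In Wnt5a the antibody gave 0 of 9, beside 0.884%, with 1 member and 15.05% of all genes at that unadjusted p. The difference between the antibody effects called 0 of 9 members and 0% of all genes, with 1 member and 3.885% of all genes at an unadjusted p under 0.05. DESeq2 and both voom fits also called 0 members in each of these comparisons except anti-Ptk7 in SCM, where each called 1.

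The spread of the members over the 36 libraries lay in different places. For Tnfsf13b, 70.2% of the sum of squares of log2 CPM lay between the 6 groups and 1.07% between the replicate numbers, where the first share follows from how it was chosen. For Tnf 65.9% lay between groups and for Tnfrsf12a 56.2%, with 37.1% of Tnfrsf12a between replicate numbers. For Tnfsf10 the order was turned, with 3.597% between groups and 70.7% between replicate numbers, and library 1 was the lowest of its group in 5 of 6 groups. Tnfrsf21 had 19.98% between groups and 51.6% between numbers, and library 1 was its highest in 6 of 6 groups. Whether a number marks the same mouse in every group is not stated.

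**Figure D3:**
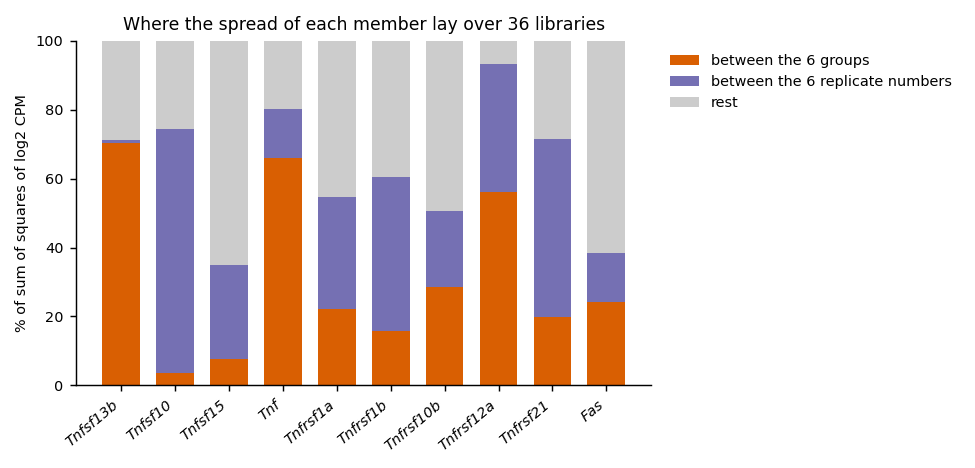
Stacked bars give the percent of the sum of squares of log2 CPM of each member over 36 libraries that lay between the 6 groups, between the 6 replicate numbers, and in the rest. The share between groups is 70.2% for Tnfsf13b, 65.9% for Tnf and 56.2% for Tnfrsf12a, and 3.597% for Tnfsf10, which has 70.7% between replicate numbers.

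Of 14 other TNF superfamily ligands, 2 were detected, Tnfsf9 (4-1BB ligand) and Tnfsf13 (APRIL), and edgeR called neither in any comparison. Tnfsf9 had a mean of 8.58 CPM in Wnt5a + IgG and 4.54 with anti-Ptk7, a log2 fold change of -0.91 (SE 0.275, adjusted p = 0.0635). DESeq2 (adjusted p = 0.0276), voom with TMM (0.0382) and voom with quantile normalization (0.0333) called this Tnfsf9 value lower, as did edgeR without replicate 5 or 6 of SCM + anti-Ptk7 (0.0397 and 0.0478). Tnfsf13 was called lower in Wnt5a + IgG against complete media by voom with quantile normalization, at -0.79 (SE 0.290, adjusted p = 0.0453). With no filter on low counts Ltb, which was under the detection limit, was called higher in SCM + IgG against complete media. Cd40lg, Fasl, Cd70, Tnfsf8, Tnfsf11 and Tnfsf18 had no count in any of the 36 libraries. Tnfsf13 overlaps the same read-through gene as Tnfsf12, so its counts are uncertain too.

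Of 22 other receptors of the family, 11 were detected, and those called in both SCM and Wnt5a against complete media were Tnfrsf11b, Tnfrsf22 and Tnfrsf23. These are known as decoys, receptors that bind a ligand without passing on its signal. Tnfrsf11b encodes osteoprotegerin, a secreted decoy for RANK ligand and TRAIL, and ranged from 4.09 to 11.1 CPM in complete media + IgG, from 29.7 to 41.0 in SCM + IgG and from 64.9 to 146 in Wnt5a + IgG. These 3 ranges did not overlap. Tnfrsf11b rose by 2.27 in SCM (SE 0.254, adjusted p = 9.24e-08) and by 3.53 in Wnt5a (SE 0.261, adjusted p = 8.21e-12) on the log2 scale. It also rose in SCM against QCM, by 1.66 (SE 0.243, adjusted p = 0.000318). There edgeR called 1 of the 11 receptors, beside 0.903% of all genes, and the count was 2 with DESeq2, with library size alone, with at least 10 counts in every library, and without replicate 6 of QCM + IgG, 1 of Wnt5a + IgG or 1 of Wnt5a + anti-Ptk7, and 3 with only the groups compared. The gene added in each of these was Tnfrsf23, at 1.39 (SE 0.396, adjusted p = 0.0579) in SCM against QCM, where its libraries did not overlap, joined by Tnfrsf22 with only the groups compared. The count was also 3 without all libraries numbered 1 and with a block for the replicate number.

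Tnfrsf22 and Tnfrsf23 encode decoy receptors for TRAIL. Tnfrsf23 rose by 1.64 in SCM (SE 0.404, adjusted p = 0.00587) and by 2.56 in Wnt5a (SE 0.409, adjusted p = 2.49e-05) on the log2 scale, from a mean of 4.91 CPM to 15.3 and 29.1 CPM. Tnfrsf22 rose by 0.98 (SE 0.293, adjusted p = 0.0253) and by 1.69 (SE 0.295, adjusted p = 8.11e-05). The first of these Tnfrsf22 calls was lost without any of 5 libraries, replicates 2, 3 and 4 of complete media + IgG and 1 and 4 of SCM + IgG, at adjusted p of up to 0.0756, and under voom with quantile normalization. Under glmTreat the SCM calls of both Tnfrsf22 and Tnfrsf23 were lost, while their Wnt5a calls and both Tnfrsf11b calls held. With anti-Ptk7, Tnfrsf11b went from a mean of 37.7 to 26.3 CPM in SCM, a log2 fold change of -0.53 (SE 0.234, adjusted p = 0.237), and had one of 0.05 (SE 0.228, adjusted p = 0.958) in Wnt5a. In SCM Tnfrsf23 went from a mean of 15.3 to 7.22 CPM, a log2 fold change of -1.09 (SE 0.392, adjusted p = 0.131), and Tnfrsf22 had one of -0.66 (SE 0.289, adjusted p = 0.231). In Wnt5a the values were -0.40 (SE 0.375, adjusted p = 0.689) for Tnfrsf23 and -0.35 (SE 0.282, adjusted p = 0.620) for Tnfrsf22. None of these passed the test in this fit, which has no term for the replicate number. By replicate number, Tnfrsf22 and Tnfrsf23 were lower with the antibody in 6 of 6 pairs in SCM and in Wnt5a, and Tnfrsf11b in 6 of 6 and 4 of 6. With a block for that number Tnfrsf22 and Tnfrsf23 were called lower in SCM, but the pairing is not established. Without the libraries numbered 1, Tnfrsf22 was called lower with anti-Ptk7 in SCM (-0.90, adjusted p = 0.0275). Both genes are similar neighbours on chromosome 7, 143634806 to 143649661 and 143665809 to 143685872 on the minus strand of GRCm38, and both overlap E230032D23Rik on the other strand, so reads could be divided between them and their separate values are uncertain.

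In all, 3 of the 11 tested receptors were called higher in SCM, beside 6.08% of all genes, and 4 in Wnt5a, beside 10.2%. The fourth was Tnfrsf19 (1.47, SE 0.519, adjusted p = 0.0378). Its call was lost without replicate 1, 2, 3, 5 or 6 of complete media + IgG or 1, 4 or 5 of Wnt5a + IgG, at adjusted p of up to 0.160. It was also lost under both voom fits and with no filter. The lymphotoxin receptor gene Ltbr kept between 116 and 158 CPM in all 36 libraries and was called nowhere. Tnfrsf11a, the signaling receptor RANK, rose with anti-Ptk7 in SCM, from a range of 31.7 to 68.6 CPM to one of 70.7 to 106 CPM. Its log2 fold change was 0.60 (SE 0.161, adjusted p = 0.0351) in SCM and 0.51 (SE 0.161, adjusted p = 0.0799) in Wnt5a. In Wnt5a + anti-Ptk7 replicate 1 lay at 46.5 CPM and the other 5 libraries between 80.7 and 96.0 CPM, and Tnfrsf11a was called higher there without that library (0.63, adjusted p = 0.0183) and without all libraries numbered 1 (0.66, adjusted p = 0.00366). The call in SCM was lost when replicate 1 or 6 of SCM + IgG or 2, 3 or 5 of SCM + anti-Ptk7 was left out, at adjusted p of up to 0.116. It was also lost with no filter, with only the groups compared, and without all libraries numbered 1.

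**Figure D4:**
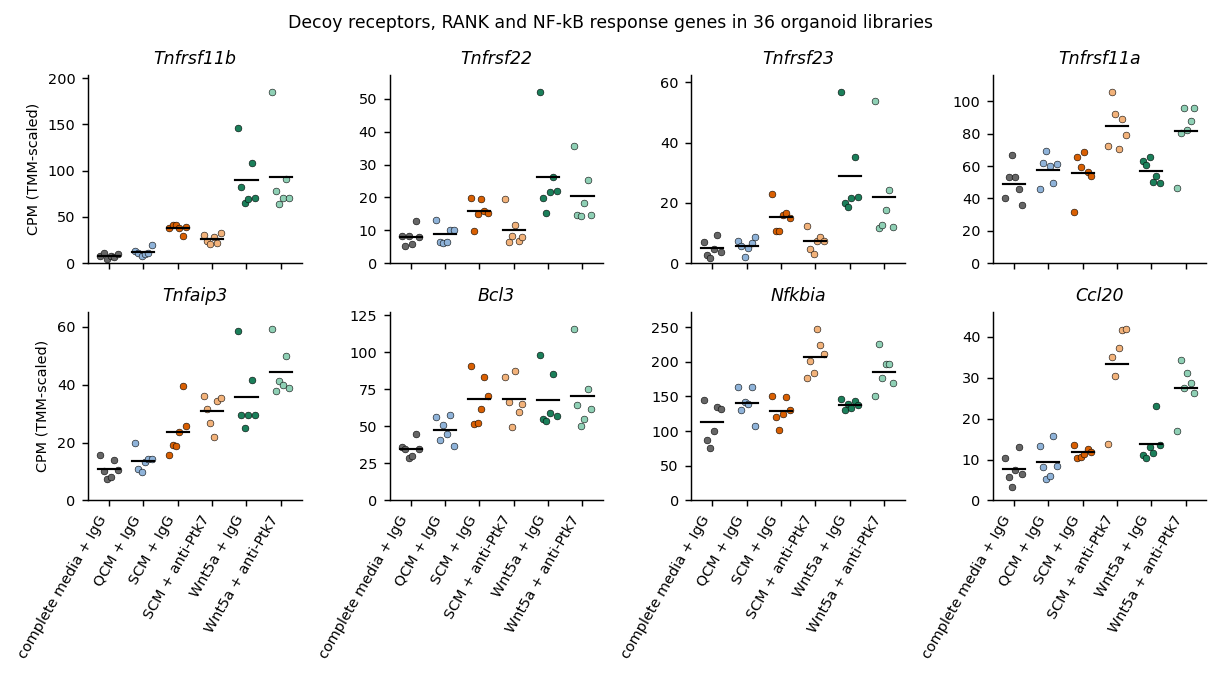
CPM after TMM scaling in each library (points, replicates 1 to 6 from left to right) with the mean of 6 libraries (black lines), for the decoy receptors Tnfrsf11b, Tnfrsf22 and Tnfrsf23, for RANK (Tnfrsf11a) and for 4 NF-kB response genes; the axes start at 0. Tnfrsf11b steps from a mean of 7.82 CPM in complete media to 37.7 in SCM + IgG and 90.4 in Wnt5a + IgG, while Nfkbia is highest in SCM + anti-Ptk7, at a mean of 207 CPM.

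The genes that carry the signal of the receptors were counted in the same way. Among 24 tested adaptors and death signaling genes, 1 was called higher in SCM, beside 6.08% of all genes, and 3 in Wnt5a, beside 10.2%, and none lower. With 1 library left out the SCM count was 0 (without replicate 1 of SCM + IgG) to 3 (without replicate 2 or 4 of SCM + IgG), and 2 without any of 12 others. The Wnt5a count was 2 to 6, with 5 without replicate 5 and 6 without replicate 1 of complete media + IgG or replicate 2 or 3 of Wnt5a + IgG. Casp8, the initiator caspase of death receptors, had 0.58 in SCM (SE 0.156, adjusted p = 0.0119) and 0.57 in Wnt5a (SE 0.156, adjusted p = 0.00703), under the fold cutoff in both. Mlkl, the executor of necroptosis, rose by 1.06 in SCM (SE 0.284, adjusted p = 0.0117) and by 1.37 in Wnt5a (SE 0.283, adjusted p = 0.000558) on the log2 scale, and its SCM call was lost without replicate 1 of SCM + IgG (adjusted p = 0.0631) and under voom with quantile normalization. Cflar, the inhibitor of caspase-8 known as c-FLIP, rose by 0.81 in Wnt5a (SE 0.224, adjusted p = 0.0079). Ripk3, the kinase upstream of Mlkl, had 0.59 (SE 0.174, adjusted p = 0.0121) in Wnt5a, a call lost under both voom fits, with no filter, with scaling by the upper quartile or by library size, with only the groups compared, and in 11 of 36 leave-one-out fits. Those left out replicate 2, 3 or 6 of complete media + IgG, 2, 3 or 5 of QCM + IgG, 2 or 5 of SCM + IgG, 1 of Wnt5a + IgG, or 1 or 2 of Wnt5a + anti-Ptk7, and the lowest log2 fold change was 0.45. The other 4 main comparisons called none of the 24.

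Among 16 NF-kB factors and kinases, 2 were called higher in Wnt5a, Nfkb2 and Relb, beside 10.2% of all genes. Without all libraries numbered 1 that count was 1. Nfkb2 rose by 0.86 on the log2 scale (SE 0.150, adjusted p = 8.16e-05), and the Relb value of 0.60 (SE 0.174, adjusted p = 0.0114) lost its call without replicate 3 or 6 of complete media + IgG or 1 or 5 of Wnt5a + IgG (lowest value 0.47), with voom on quantile-normalized values, with no filter, and with scaling by the upper quartile or by library size. In SCM against QCM Nfkb1 fell by 0.61 on the log2 scale (SE 0.135, adjusted p = 0.0166), a call lost without replicate 3 or 4 of QCM + IgG or 2 or 5 of SCM + IgG, where the value nearest 0 was -0.54. With anti-Ptk7 in SCM Nfkbia, the inhibitor IkB-alpha, rose from a mean of 129 to 207 CPM, by 0.68 (SE 0.127, adjusted p = 0.00265), and these groups did not overlap.

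Of 14 tested NF-kB response genes, 2 were called higher in SCM, beside 6.08% of all genes, and 6 in Wnt5a, beside 10.2%. With anti-Ptk7, 3 were called higher in SCM, beside 1.23% of all genes, and 1 in Wnt5a, beside 0.884%, and none was called lower. The Wnt5a count of 6 was 4 without replicate 3 of complete media + IgG or 5 of Wnt5a + IgG. Nfkb2, Relb, Nfkbia and Nfkbie stand on both NF-kB lists, and Birc3 and Traf1 stand on the response and the adaptor lists. Tnfaip3, the NF-kB inhibitor A20, rose by 1.11 in SCM (SE 0.219, adjusted p = 0.000745) and by 1.70 in Wnt5a (SE 0.220, adjusted p = 8.34e-07) on the log2 scale. Cxcl10, a chemokine induced by interferon, rose by 2.02 in Wnt5a (SE 0.469, adjusted p = 0.00186), at a low level, from a mean of 0.332 to 1.35 CPM, and its log2 fold change in SCM was 1.38 (SE 0.471, adjusted p = 0.0503). Bcl3, a nuclear IkB protein, rose by 0.97 (SE 0.187, adjusted p = 0.000533) and by 0.96 (SE 0.187, adjusted p = 0.000289). Over the 14 genes this value had a median of 0.42 in SCM and 0.68 in Wnt5a, beside 0.0068 and 0.0051 over all genes. In QCM against complete media all 14 lay above 0, with a median of 0.30 beside 0.023 over all genes. In SCM against QCM 9 lay above 0 and 5 below, with a median of 0.22 beside -0.0078.

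With anti-Ptk7 in SCM the other called response genes were Ccl20, a chemokine of gut epithelium, and Tnfaip2. Ccl20 rose from a mean of 11.7 to 33.4 CPM, by 1.51 on the log2 scale (SE 0.269, adjusted p = 0.00156). In Wnt5a it rose with the antibody by 1.00 (SE 0.265, adjusted p = 0.0323), a call lost without replicate 1, 2, 3, 4 or 6 of Wnt5a + IgG or 2, 4 or 5 of Wnt5a + anti-Ptk7, at adjusted p of up to 0.0763. Tnfaip2 rose by 1.73 in SCM (SE 0.419, adjusted p = 0.019), at a level of 4.15 CPM, and lost its call without replicate 2 of SCM + anti-Ptk7 (adjusted p = 0.0557) and with only the groups compared. Il6 and Ccl2, classical targets of TNF, were under the detection limit, at 0 in 35 and 30 libraries.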

How the data were processed

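RNA of 36 organoid cultures was sequenced from Smart-Seq V4 and Nextera XT libraries. The authors filtered and aligned reads with HTSeqGenie and GSNAP to NCBI Build 38, named mm10 in the submitters' processing notes. The authors deposited raw counts per Ensembl gene and library, whole numbers without normalization, of reads within coding sequences per the study's methods. The annotation and the use of strand are not given in the sources used here. Totals were 9581589 to 21029769 counts per library, and the amplified reads carry no stated molecular identifiers.

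The members and gene lists were chosen with earlier results of these data known. Groups came from the labels. Counts were matched to GENCODE symbols (233 of 52636 identifiers had none). R 4.3.3 with edgeR 4.0.16 was used, with filterByExpr, TMM scaling and the quasi-likelihood test in 1 model with 6 group means over all 36 libraries. P values were adjusted by the Benjamini-Hochberg method over the 15497 genes tested, with calls below 0.05 that changed by more than 1.5-fold. Log2 CPM had a prior count of 2. Named genes were the 10 members, called genes of each list, at most the 4 with the largest change in a comparison, and the 5 genes most correlated with Tnfsf13b among those tested with a mean log2 CPM over 1; other list genes are named for their background or because they are at 0. The scripts were tested on simulated data.

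All 90 pairs of replicates differed by more than sampling noise (lowest chi-square 7.25 per gene), and each library was kept. Alternatives were limma 3.58.1 voom with quantile normalization (the test of the study) or TMM, DESeq2 1.42.0, scaling by upper quartile or by library size, a filter of 10 counts in every library or none, a block by replicate number, only the groups compared, no fold cutoff, glmTreat, each library left out, and, added after the data were seen, all libraries numbered 1 left out. The table of the whole series repeats the same counts and was not used. Promoter sequences are from RefSeq.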

Additional observations from a re-analysis of the deposited data

Results flagged for a closer look

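In 4 of 60 combinations of a member and a group, 1 library stood apart from the other 5 on the log2 CPM scale, by a ratio of its gap to the range above Dixon's 95% critical value. Chance alone gives about 1 in 20. The Tnfrsf1b level of replicate 1 in Wnt5a + anti-Ptk7 was 80.3 CPM, against 39.3 to 45.4 CPM in the other 5 libraries (ratio 0.798). The Tnfrsf12a level of replicate 1 in Wnt5a + IgG was 391 CPM, against 216 to 262 CPM (ratio 0.675). The Tnf level of replicate 3 in Wnt5a + anti-Ptk7 was 7.02 CPM, against 10.5 to 13.2 CPM (ratio 0.633). The Fas level of replicate 4 in SCM + anti-Ptk7 was 1.53 CPM, against 3.17 to 4.34 CPM (ratio 0.691).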

How the results depend on the processing

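Of 3345 log2 fold changes of single members under alternative settings, 31 lost a call, 2 gained one and none of the called ones changed sign. The other 3312 include antibody values of Tnfsf13b, which were not tested, and are mostly values not called in the main fit. Tnf lost its call in 18 of 48 alternatives in SCM and 0 of 48 in Wnt5a against complete media. Tnfrsf12a lost its call in 1 of 48 in each of these and in 7 of 48 with anti-Ptk7 in SCM. The remaining losses were of Tnfsf13b in SCM, whose level served in its choice. Without Tnfsf13b, 2 of 9 members were called in SCM against complete media. That count was 1 with only the groups compared and 0 under glmTreat. It was between 1 and 2 with a library left out, and lower in 12 such fits. In Wnt5a against complete media it was 1 under glmTreat and between 2 and 3 with a library left out. With anti-Ptk7 in SCM the count of 1 became 0 with only the groups compared and under glmTreat, and was 0 to 1 with a library left out. The cause of these losses was not tested. All 10 members stayed detected at a limit of 1 CPM, at 0.5 CPM in any group, and by library size alone.

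With a block for the replicate number, the members called in SCM against QCM went from 0 to 1, Tnfrsf12a (log2 fold change 0.59, adjusted p = 3.42e-05), beside 496 genes in place of 140. Of the listed receptors it added Tnfrsf22 and Tnfrsf23 as higher in SCM against QCM (0.89, adjusted p = 0.00176, and 1.41, adjusted p = 3.94e-05) and as lower with anti-Ptk7 in SCM (-0.72, adjusted p = 0.0153, and -1.17, adjusted p = 0.000742), and of the ligands Tnfsf9 with anti-Ptk7 in Wnt5a (-0.98, adjusted p = 0.0179) and Tnfsf13 in Wnt5a (-0.67, adjusted p = 0.0242). It added Cxcl10 in SCM (1.43, adjusted p = 0.0391), Icam1 in Wnt5a (0.86, adjusted p = 0.0494), and in SCM against QCM Tnfaip3 (0.80, adjusted p = 0.000913), Tnfaip2 (-1.42, adjusted p = 0.0242), Mlkl (0.69, adjusted p = 0.0242), Krt8 and Krt18. It called the fibroblast marker Pdgfrb higher with anti-Ptk7 in SCM (2.01, adjusted p = 0.0498) and ended the Ripk3 call in Wnt5a. The block changed no other member call, but 3 other member values had an adjusted p below 0.05 and stayed under the fold cutoff. These were Tnfrsf12a in QCM against complete media (0.51, adjusted p = 0.000866) and with anti-Ptk7 in Wnt5a (-0.40, adjusted p = 0.00704), and Tnfrsf1b in Wnt5a against complete media (0.41, adjusted p = 0.0294). The block raised the counts over all genes from 58 to 178 in QCM, from 190 to 399 and from 137 to 255 with anti-Ptk7 in SCM and in Wnt5a, and from 0 to 3 for the difference between the antibody effects. Deviations from the group means correlated at 0.092 on average between libraries of the same number, against -0.018 for different numbers, but 34 of 90 such pairs were over 0.1 (15 of 15 for number 1, 11 of 15 for number 3 and 0 to 3 of 15 for the others), against 33 of 450 for different numbers, and 16 of 36 libraries correlated best with their own number, so the pairing is not established, although the series names 6 mice with IDs 1 to 6. Tnfsf15, Tnfsf13b and Fas rest on few counts, and differences smaller than their errors were not detectable at this depth. Counts of listed genes kept within 1.5 times in 1903 of 2016 alternatives, with 72 higher and 41 lower. Under glmTreat the listed receptors called in SCM against complete media went from 3 to 1, the adaptors in Wnt5a from 3 to 1 and the response genes in Wnt5a from 6 to 2, with 3 receptors left in Wnt5a and 1 in SCM against QCM and no other gene of these 6 lists called.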

Other observations

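Genes of the release or cutting of TNF superfamily ligands, 5 proteases, their partners Rhbdf1 and Rhbdf2 and the protease inhibitor Timp3, were detected in these organoids, all 8 of those listed. In Wnt5a + IgG against complete media 3 of the 8 were called higher and none lower, beside 10.2% of all genes, with a median log2 fold change of 0.33 against 0.0051 over all genes. Furin, the proprotein convertase that cuts BAFF and APRIL, rose from a mean of 108 to 197 CPM, by 0.87 on the log2 scale (SE 0.165, adjusted p = 0.000227). Rhbdf1 (iRhom1), a partner of the TNF sheddase ADAM17, rose by 0.84 (SE 0.164, adjusted p = 0.000298), and Sppl2a, a protease that cleaves the membrane stub of TNF, by 0.63 (SE 0.126, adjusted p = 0.000389). The Sppl2a change fell below the fold cutoff without replicate 1 of Wnt5a + IgG (adjusted p = 0.00207) and with scaling by library size alone. None of the 8 was called by edgeR in the other 5 main comparisons. In SCM + IgG against complete media Sppl2a had 0.56 (SE 0.126, adjusted p = 0.00247), under the fold cutoff, and was called without replicate 1 of complete media + IgG or 4 of SCM + IgG (0.59 in both), and Rhbdf1 was called without all libraries numbered 1 (0.59, adjusted p = 0.00608). The genes of the sheddases themselves, Adam17 and Adam10, were called in none.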
